A study of Mus musculus with 24 samples.

Results

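Neuronal pentraxins, C1q-like proteins and cerebellins are families of secreted or membrane-tethered proteins that organize synapses. Their genes were taken from the count matrix by Ensembl identifier, and the set held 9 genes (Nptx1, Nptx2, Nptxr, C1ql1, C1ql2, C1ql3, Cbln1, Cbln2 and Cbln4) of 55471 in all. The hippocampus of 12 female C57BL/6 mice, 3 to 6 months old, was examined in 4 groups of 3. CBP-ifKOs carry floxed alleles of Crebbp, the gene of the lysine acetyltransferase CBP, and the tamoxifen-inducible recombinase creERT2 under the Camk2a promoter. The floxed gene is therefore lost in forebrain excitatory neurons of the adult, whereas interneurons and glia in the same tissue keep it, and recombined neurons still make a truncated CBP. Control mice were littermates without creERT2, and both genotypes received 5 intragastric administrations of tamoxifen, so both had the drug, whereas CBP-ifKOs alone had the creERT2 transgene. Mice of each genotype lived in a Standard Cage (SC) or, for a month, in Environmental Enrichment (EE), a large box with running wheels, tubing and toys. The groups are called Control SC, CBP-ifKO SC, Control EE and CBP-ifKO EE, and the question for each gene is whether its transcript level differed between genotypes, between housings, and whether the housing difference depended on genotype.

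Neuronal pentraxins gather AMPA-type glutamate receptors at excitatory synapses. NP1 (from Nptx1) and NP2, also called Narp (from Nptx2), are secreted, and Nptx2 is known as a gene that neuronal activity induces. The neuronal pentraxin receptor (from Nptxr) holds pentraxin complexes at the membrane. C1q-like proteins and cerebellins carry a domain related to complement C1q and act from the presynaptic side. C1ql2 and C1ql3 are known from the mossy fibers of dentate granule cells, where they bind neurexins and kainate receptors, and C1ql1 is the ligand of the adhesion receptor encoded by Adgrb3. Cerebellins connect presynaptic neurexins with glutamate delta receptors.

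All 9 genes are protein coding. On GRCm38 the pentraxin genes lie on chromosome 11 from 119538719 to 119547753 (Nptx1), chromosome 5 from 144545902 to 144557478 (Nptx2) and chromosome 15 from 79786351 to 79804766 (Nptxr). The C1q-like genes lie on chromosome 11 from 102939264 to 102946688 (C1ql1), chromosome 1 from 120340582 to 120343174 (C1ql2) and chromosome 2 from 13003457 to 13011806 (C1ql3). The cerebellin genes lie on chromosome 8 from 87468405 to 87472609 (Cbln1) and chromosome 2 from 172036233 to 172043466 (Cbln4), with the position of Cbln2 given beside its values. In 7 of the 9 genes no stretch of 50 bases, the length of a read, was shared with the transcripts of another gene in GENCODE. Nptxr shared 16.6% of its 50-base stretches, mostly in the 890 exonic bases that it has in common with Npcd on the same strand, and Npcd had no count in any library. C1ql3 shared 61.7%, all with the noncoding genes Gm37811 and Gm37824 on the opposite strand, whose mean level in a group was at most 3.77 CPM (the usual scale of counts relative to a common library total). Whether the counting used the strand is not given in the sources used here. If it did not, how reads from the shared 61.7% were assigned is unknown. The level of C1ql3 and its order against C1ql2 are then uncertain, by an amount that the levels of Gm37811 and Gm37824 do not limit.

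Of the 9 genes, 3 (C1ql2, C1ql3 and Cbln4) matched a promoter of GRCm38.p6 in the RefSeq table. The 250 bases before the transcription start of C1ql2, the gene with the largest difference between genotypes, and of Cbln4, in which no difference was detected, are shown because CBP is a coactivator of CREB, a factor that binds the cAMP response element. They occupy chr1:120340332-120340581 on the plus strand and chr2:172043467-172043716 on the minus strand, are printed 5′ to 3′, and capitals mark the half-site of that element.
C1ql2: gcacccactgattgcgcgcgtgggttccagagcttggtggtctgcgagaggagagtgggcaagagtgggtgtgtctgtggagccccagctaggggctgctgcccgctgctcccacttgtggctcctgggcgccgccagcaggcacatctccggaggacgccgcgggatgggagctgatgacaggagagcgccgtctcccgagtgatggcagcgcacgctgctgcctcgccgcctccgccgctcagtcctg
Cbln4: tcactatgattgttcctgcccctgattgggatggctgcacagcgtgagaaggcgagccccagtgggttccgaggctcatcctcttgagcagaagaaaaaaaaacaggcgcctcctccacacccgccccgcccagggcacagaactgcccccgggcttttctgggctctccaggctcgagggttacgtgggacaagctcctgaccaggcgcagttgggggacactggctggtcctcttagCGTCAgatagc
The half-site TGACG, searched on both strands, occurred 1 time in the window of Cbln4 and not in those of C1ql2 and C1ql3, and 17.8% of the 32851 promoters in the table held it in the same window. The full element TGACGTCA, which contains the half-site, occurred in none of the 3 and in 1.55% of all promoters, and the AP-1 site TGANTCA occurred in none of the 3 and in 6.75%. The RefSeq window of C1ql3 lies inside the gene as GENCODE annotates it, so it is not printed and its values are not those of the GENCODE promoter. These counts describe letters in a short window and not binding. The G and C content was 68.8% for C1ql2, 66.4% for C1ql3 and 60.8% for Cbln4.

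Control libraries held 26874015 to 27971488 counts and CBP-ifKO libraries 28582210 to 37448388, and every CBP-ifKO count was even. Even counts would arise if each read had been counted 2 times, which was not tested, and the CBP-ifKO totals would then be 14291105 to 18724194. With halved CBP-ifKO counts, all 52 recomputed changes and counts of calls of the 9 genes kept their direction and their side of the threshold. Crebbp was lower in CBP-ifKOs in both housings (from 75.5 ± 5.78 to 50.7 ± 0.796 CPM in SC and from 73.0 ± 3.80 to 46.5 ± 1.89 in EE, SD, n = 3 each), and Esr1, whose sequence is part of creERT2, rose from at most 5.82 to at least 67.0 CPM, so both genes went with the labels. Markers of excitatory neurons, with Slc17a7 at 1240 CPM in Control SC, were present at a high level, as in the labelled tissue. The library Control EE 1 stood apart, because 5 choroid plexus markers summed to 1243 CPM there and to between 34.8 and 62.1 in the other 11 libraries. The main results of the 9 genes that rest on Control EE are therefore also given without it. CA1 pyramidal cell markers were lower in CBP-ifKOs, with 3 of 5 called in either housing, and the sums of 640 to 738 CPM in Control SC and 500 to 523 in CBP-ifKO SC did not overlap. In tissue RNA, fewer cells of a type and less RNA per cell cannot be told apart.

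Levels between genes were compared as CPM per kilobase of the deposited gene length (RPKM). The pentraxins Nptxr and Nptx1 were the most abundant members, at 197 ± 7.47 and 144 ± 2.03 RPKM in Control SC (SD, n = 3), above 99.4% and 99% of the 18251 expressed genes. C1ql2 (33.2 ± 3.70 RPKM) and C1ql3 (24.5 ± 1.56) came next, above 92.8% and 89.4% of genes. The other 5 genes were nearer the middle of the distribution, with Nptx2 at 6.66 ± 0.981, Cbln4 at 5.02 ± 0.252, Cbln2 at 4.93 ± 0.443, C1ql1 at 4.15 ± 0.294 and Cbln1 at 1.81 ± 0.397 RPKM. Only the neighbors Cbln4 and Cbln2 had overlapping ranges in Control SC. In both CBP-ifKO groups the order of C1ql2 and C1ql3 was exchanged, with C1ql3 at 27.01 ± 1.28 and C1ql2 at 10.9 ± 1.96 RPKM in CBP-ifKO SC. In that group Nptx2 (3.30 ± 0.189 RPKM) also stood below both Cbln4 and Cbln2, while its range overlapped that of C1ql1, and the ranges of Cbln4 and Cbln2 overlapped. In Control EE the ranges of C1ql2 and C1ql3 overlapped, as did those of Cbln4, Cbln2 and C1ql1 in sequence. In CBP-ifKO EE the ranges of Nptx2, Cbln4 and Cbln2 overlapped in sequence. The family genes outside the set were scarce. C1ql4 had at most 4 counts in a library and was not tested, and Cbln3, known from cerebellar granule cells, had between 16 and 52 counts and did not pass any test.

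**Figure D1:**
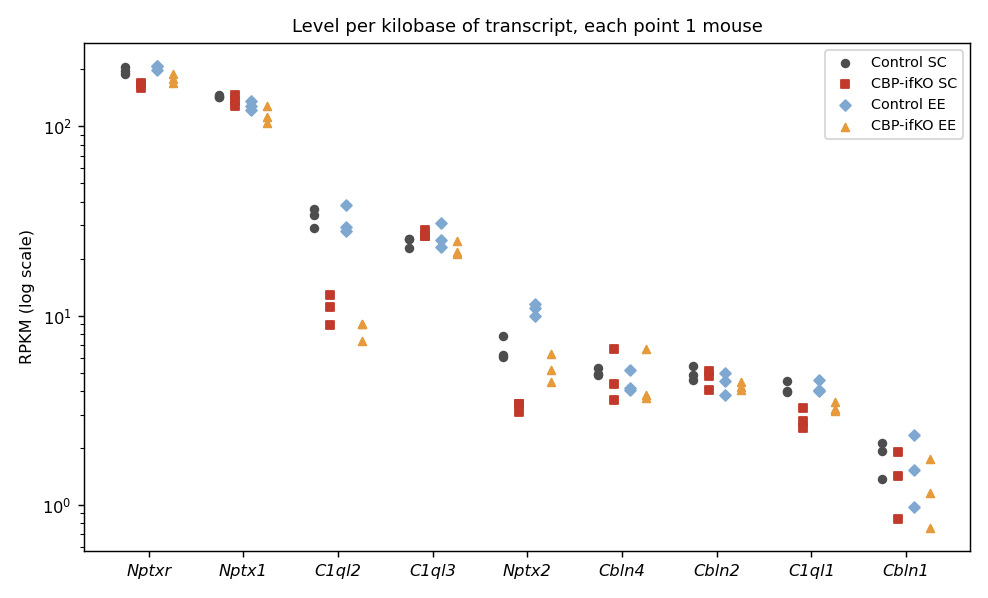
RPKM (log axis) of the 9 genes in order of their level in Control SC, with 1 point per mouse and 1 color and symbol per group. Nptxr (197 RPKM in Control SC) and Nptx1 (144) lie highest and Cbln1 (1.81) lowest, and the CBP-ifKO points of C1ql2 lie below those of C1ql3.

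Loss of CBP was accompanied by lower transcript levels of 4 of the 9 genes in SC-housed mice, all in the same direction. C1ql2 fell 3.04-fold, Nptx2 fell 2.01-fold, C1ql1 fell 1.46-fold and Nptxr fell 1.19-fold (edgeR's quasi-likelihood test, adjusted p below 0.05 for each). Among all 17532 genes tested, 4.02% were called lower and 1.51% higher in CBP-ifKO SC. In EE-housed mice C1ql2 and Nptx2 were called lower, and no member was called higher in either housing. There, 3.53% of 17625 genes were called lower and 1.03% higher. At an unadjusted p below 0.05 there were 4 members in SC and 4 in EE, against 20.5% and 19.6% of all genes. The medians of the 9 log2 fold changes were -0.26 in SC and -0.21 in EE, against -0.0019 and 0.01 over all genes tested. The 3 mice of each genotype did not overlap in 5 of the 9 genes in SC, where 25.9% of all genes did not overlap, and in 4 of the 9 in EE, where 25.3% did not. Within the families, 2 of 3 pentraxins and 2 of 3 C1q-like genes were called in SC, 1 of 3 of each in EE, and no cerebellin in either housing.

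**Figure D2:**
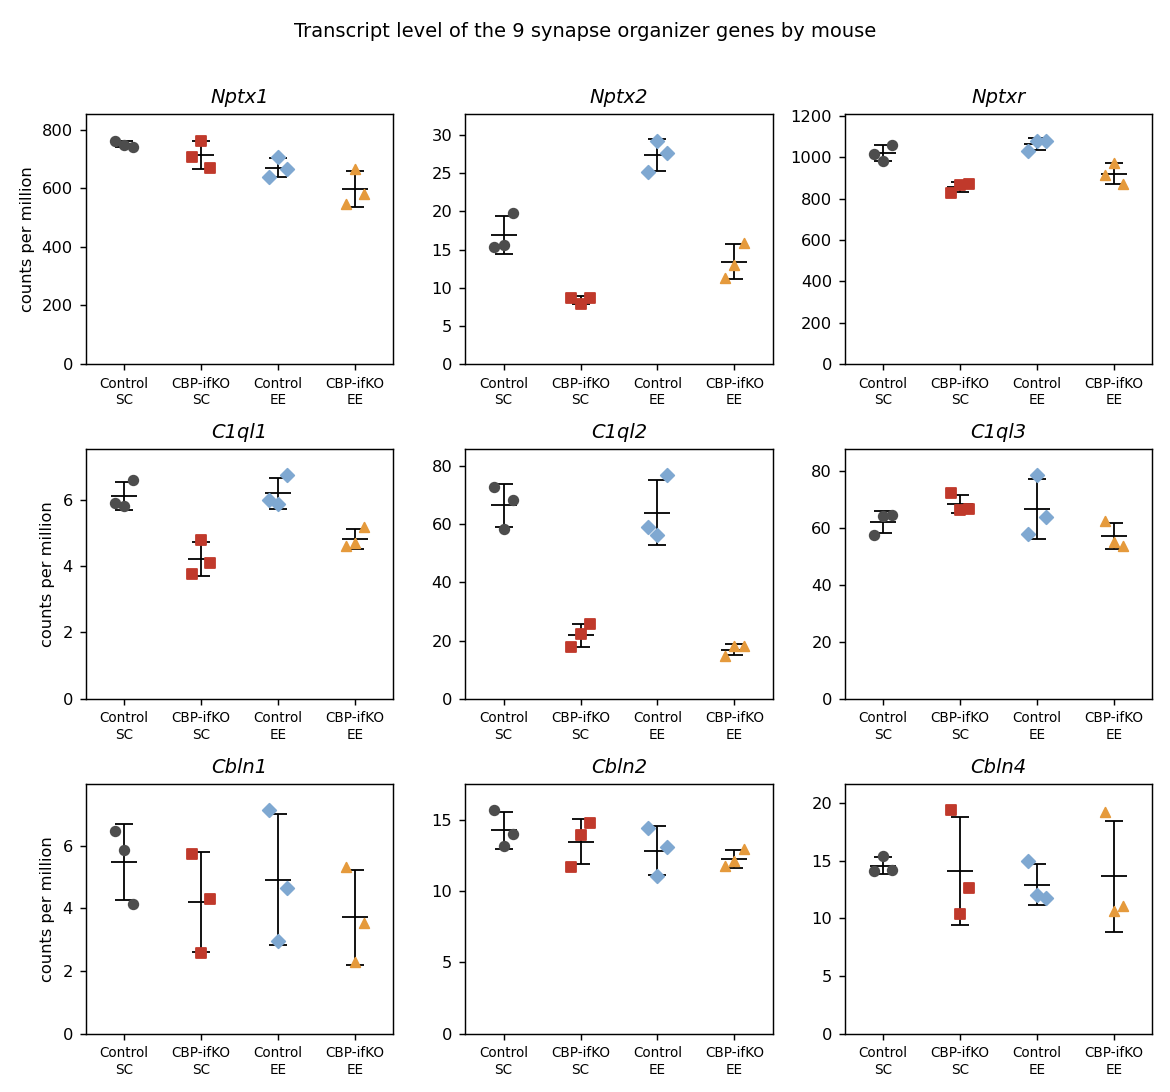
CPM of each gene in the 12 mice, with group means and SD bars (n = 3). The CBP-ifKO points of Nptx2 and C1ql2 lie below the control points of the same housing, and Nptx2 is higher in EE than in SC within each genotype.

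C1ql2 (ENSMUSG00000036907) had the strongest change. The CPM values were 72.7, 58.3 and 68.3 in the Control SC mice and 17.8, 22.2 and 25.6 in the CBP-ifKO SC mice. In EE they were 59.01, 56.2 and 76.7 in controls and 14.7, 18.04 and 17.98 in CBP-ifKOs. The lowest control mouse was at 56.2 and the highest CBP-ifKO at 25.6, so the genotypes were apart in both housings and the housings overlapped within each genotype. The log2 fold change was -1.60 (95% interval -1.86 to -1.34) in SC and -1.91 (-2.18 to -1.64) in EE (edgeR adjusted p = 3.44e-05 and 3.57e-05). Ordered by p-value, C1ql2 had rank 8 among the genes tested in SC and rank 3 in EE. Its interaction of genotype and housing was -0.32 on the log2 scale (95% interval -0.73 to 0.09), which did not pass the test. Markers of dentate granule cells, in which C1ql2 is best known, summed to between 582 and 587 CPM in Control SC and between 529 and 585 in CBP-ifKO SC, and 1 of 6 (Trpc6) was called lower. In EE the sums were 531 to 659 in controls and 493 to 506 in CBP-ifKOs, and 3 of 6 (Trpc6, Dsp and Stxbp6) were called lower. The median log2 fold change of the 6 markers was -0.07 in SC and -0.40 in EE, and that of Prox1, a transcription factor of granule cells, was 0.05 and -0.06. The 3 markers of CA3 pyramidal cells, on which mossy fibers end, summed to 202 to 212 CPM in Control SC and 161 to 179 in CBP-ifKO SC, and to 223 to 252 and 166 to 195 in EE, and 1 of 3 (Cpne4) was called lower in each housing. The part of either marker list in the change of C1ql2 was not tested.

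C1ql3 (ENSMUSG00000049630), the close relative of C1ql2, did not pass the test in either housing. It had 57.6, 64.4 and 64.4 CPM in Control SC and 72.2, 66.4 and 66.8 in CBP-ifKO SC, so each CBP-ifKO SC mouse was above each Control SC mouse. In EE the controls had 58.1, 78.5 and 63.7 and the CBP-ifKOs 62.5, 55.2 and 53.8, which overlap. The log2 fold changes were 0.14 (95% interval -0.0004 to 0.28) in SC and -0.21 (-0.44 to 0.01) in EE. The edgeR adjusted p was 0.245 in SC and 0.284 in EE. In EE, 1 of 13 alternatives called it lower, the edgeR fit without a filter on low counts (adjusted p = 0.0338).

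The ratio of C1ql2 to C1ql3 within a mouse does not depend on how the library was scaled, though it carries the uncertainty of C1ql3 from its antisense genes. It was 1.36 ± 0.228 in Control SC and 0.407 ± 0.0882 in CBP-ifKO SC, and 1.24 ± 0.312 in Control EE and 0.379 ± 0.0696 in CBP-ifKO EE (ratio of RPKM, SD, n = 3). The lowest control ratio was 0.908 and the highest CBP-ifKO ratio 0.486. C1ql2 thus provided 53.6% ± 3.92 of the RPKM of the 3 C1q-like genes in Control SC and 26.7% ± 4.18 in CBP-ifKO SC, while the summed RPKM of the family was 61.9 ± 2.97 and 40.8 ± 1.02. In EE the share was 51.1% ± 5.97 in controls and 24.7% ± 3.26 in CBP-ifKOs.

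C1ql1 (ENSMUSG00000045532) was the least abundant C1q-like gene, with 126 to 184 counts per library. Its CPM values were 5.90, 5.82 and 6.61 in Control SC against 3.77, 4.78 and 4.08 in CBP-ifKO SC, and 5.99, 5.87 and 6.73 in Control EE against 4.599, 4.70 and 5.17 in CBP-ifKO EE. The genotypes did not overlap in either housing. The log2 fold change was -0.54 (95% interval -0.85 to -0.23, edgeR adjusted p = 0.0463) in SC and -0.35 (-0.65 to -0.06, adjusted p = 0.169) in EE. The SC call was lost in 5 of the 6 fits that each left out 1 SC mouse, in which the edgeR adjusted p ranged up to 0.182. Markers of oligodendrocyte precursors, glial cells outside the reach of the Camk2a driver that are also known to express C1ql1, were lower in summed level too. The sum was 135 to 148 CPM in Control SC and 105 to 118 in CBP-ifKO SC, and 132 to 146 and 113 to 129 in EE. Pdgfra was the 1 of 5 called lower in SC and none was in EE, and their part in the change of C1ql1 was not tested.

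Nptx2 (ENSMUSG00000059991) fell 2.01-fold in SC and 2.03-fold in EE. It had 15.3, 15.6 and 19.8 CPM in Control SC and 8.67, 7.82 and 8.63 in CBP-ifKO SC, and 25.2, 29.3 and 27.7 in Control EE and 11.3, 13.0 and 15.9 in CBP-ifKO EE. Within each housing all CBP-ifKOs were below all controls. The highest CBP-ifKO EE mouse lay within the Control SC range and the other two lay below it. The log2 fold change between genotypes was -1.01 (95% interval -1.26 to -0.76) in SC and -1.02 (-1.28 to -0.77) in EE, with edgeR adjusted p-values of 6.35e-04 and 9.26e-04. The interaction in the fit of all 12 mice was -0.02, with a 95% interval of -0.40 to 0.35.

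Nptxr (ENSMUSG00000022421), the most abundant of the 9 transcripts, differed by little, with a small spread. It had 1017, 982 and 1059 CPM in Control SC and 826, 865 and 872 in CBP-ifKO SC, which do not overlap. In EE it had 1030, 1080 and 1080 in controls and 915, 972 and 871 in CBP-ifKOs, which do not overlap either. The log2 fold change was -0.26 (95% interval -0.36 to -0.15, edgeR adjusted p = 0.0118) in SC and -0.20 (-0.32 to -0.08, adjusted p = 0.0692) in EE. The SC call was lost without Control SC 3, CBP-ifKO SC 1 or CBP-ifKO SC 2, with edgeR adjusted p-values of 0.0684, 0.0742 and 0.0599, so that only C1ql2 and Nptx2 then remained of the 4 genes. In EE, 3 of 13 alternatives called Nptxr, among them DESeq2 (adjusted p = 0.0134).

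Nptx1 (ENSMUSG00000025582) had 742 to 762 CPM in Control SC and 671 to 763 in CBP-ifKO SC, and 640 to 707 and 546 to 665 in EE. The groups overlapped in both housings. Its log2 fold change was -0.07 (95% interval -0.19 to 0.05) in SC and -0.16 (-0.32 to 0.003) in EE, neither of which passed the edgeR test. The ratio of Nptx2 to Nptx1 was accordingly lower in CBP-ifKOs, at 0.0463 ± 0.00733 in Control SC and 0.0243 ± 0.00281 in CBP-ifKO SC, and at 0.0840 ± 0.00253 in Control EE and 0.0464 ± 0.00861 in CBP-ifKO EE (ratio of RPKM, SD, n = 3). The ratio of CBP-ifKO EE lay at the level of Control SC. The ratio of Nptxr to Nptx1 was 1.37 ± 0.0601 in Control SC, 1.21 ± 0.0890 in CBP-ifKO SC, 1.601 ± 0.0511 in Control EE and 1.56 ± 0.117 in CBP-ifKO EE.

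**Figure D3:**
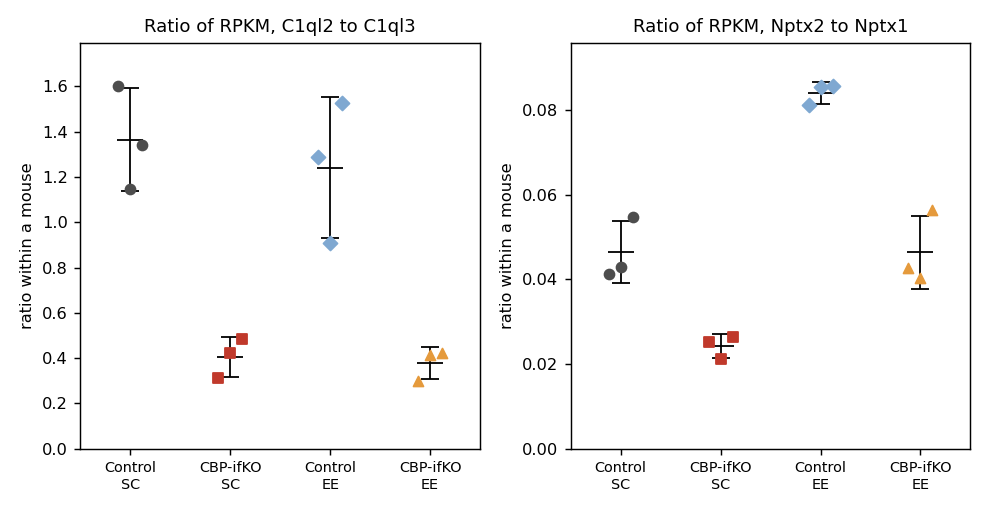
Ratio of RPKM of C1ql2 to C1ql3 and of Nptx2 to Nptx1 in each mouse, with group means and SD bars (n = 3). The ratio of C1ql2 to C1ql3 stays at or above 0.908 in controls and at or below 0.486 in CBP-ifKOs, and the ratio of Nptx2 to Nptx1 is lowest in CBP-ifKO SC and highest in Control EE.

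No genotype difference was detected in the cerebellins. Cbln2 (ENSMUSG00000024647, chromosome 18 from 86711110 to 86718283) had 13.2 to 15.7 CPM in Control SC, 11.7 to 14.8 in CBP-ifKO SC, 11.04 to 14.4 in Control EE and 11.7 to 12.9 in CBP-ifKO EE. Its log2 fold change between genotypes was -0.08 in SC and -0.06 in EE, with 95% intervals of -0.32 to 0.16 and -0.31 to 0.19. Cbln4 (ENSMUSG00000067578) had 14.1, 15.4 and 14.2 CPM in Control SC and 15.0, 12.01 and 11.8 in Control EE. The CBP-ifKO SC mice had 19.4, 10.4 and 12.7 and the CBP-ifKO EE mice 19.2, 10.7 and 11.04, so mouse 1 of each CBP-ifKO group was above all controls and the other two were below all controls of the same housing. The log2 fold changes of Cbln4 were -0.04 (95% interval -0.43 to 0.35) and 0.09 (-0.36 to 0.54), and without the high mouse they were -0.33 in SC and -0.24 in EE, with edgeR adjusted p-values of 0.182 and 0.382. Cbln1 (ENSMUSG00000031654) was the scarcest and most variable member, with 74 to 206 counts per library and coefficients of variation of 22.0% to 42.5% within a group. It had 4.14 to 6.46 CPM in Control SC, 2.56 to 5.74 in CBP-ifKO SC, 2.97 to 7.13 in Control EE and 2.30 to 5.32 in CBP-ifKO EE. The 95% interval of its log2 fold change ran from -0.93 to 0.17 in SC and from -1.12 to 0.33 in EE, so the interval in EE, unlike that in SC, included the log2 fold change of Nptx2. In CBP-ifKO SC, Control EE and CBP-ifKO EE mouse 1 had the highest Cbln1 and the highest Cbln4 of its group. Thalamic markers, which report tissue carried over from beside the hippocampus, summed to 68.2, 66.5 and 54.6 CPM in these 3 mice, against 49.8 to 70.6 over all mice. No thalamic marker was at or near 0, and none of 5 was called in SC and 1 (Prkcd) was called lower in EE. Interneurons, of which the somatostatin class is known for Cbln4, lie outside the reach of the driver. Their 7 markers summed to 871 to 939 CPM in Control SC, 814 to 851 in CBP-ifKO SC, 890 to 966 in Control EE and 838 to 875 in CBP-ifKO EE, and 1 (Sst) was called lower in SC and none in EE. The part of either marker list in the spread of the cerebellins was not tested.

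**Figure D4:**
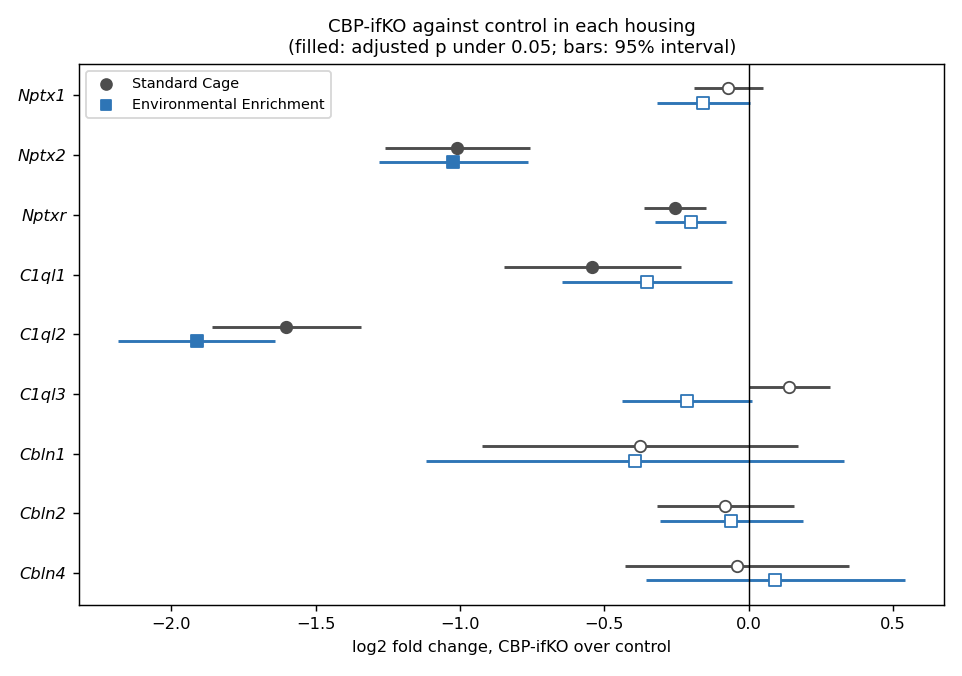
Log2 fold change of CBP-ifKO over control for each gene, with 95% intervals, in SC (circles) and EE (squares). Filled symbols passed an adjusted p of 0.05 in edgeR, which C1ql2 and Nptx2 did in both housings and Nptxr and C1ql1 in SC only.

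The call of Nptxr and C1ql1 in SC and not in EE does not show a difference between the housings. Their interaction terms were 0.04 (95% interval -0.11 to 0.20) and 0.18 (-0.21 to 0.56) on the log2 scale and did not pass the edgeR test. Without Control EE 1, the genotype differences in EE were -1.97 for C1ql2, -1.08 for Nptx2, -0.22 for Nptxr, -0.38 for C1ql1, -0.30 for C1ql3 and -0.19 for Nptx1 on the log2 scale, and only C1ql2 and Nptx2 of the 9 passed the edgeR test. Those of the cerebellins were -0.03 (Cbln1), 0.0283 (Cbln2) and 0.21 (Cbln4).

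Of the known binding partners of these proteins, Nrxn2 and Grid1 were called lower in CBP-ifKOs in SC. The list held 15 genes, among them the neurexins, the receptor of the C1q-like proteins Adgrb3, the delta receptor Grid1, the kainate receptors Grik2 and Grik4, the 4 AMPA receptor genes Gria1 to Gria4, Dcc and Neo1, which are related receptors on axons, and the protease gene Adam17. In SC, 2 of 15 were called by edgeR, both lower, where 4.02% of all genes were. Nrxn2, a neurexin, had 202 ± 8.99 CPM in Control SC and 173 ± 4.28 in CBP-ifKO SC (log2 fold change -0.23, 95% interval -0.34 to -0.11, edgeR adjusted p = 0.0290). Grid1, a delta receptor, had 82.0 ± 0.708 and 66.0 ± 4.32 (log2 fold change -0.31, 95% interval -0.44 to -0.18, edgeR adjusted p = 0.0113). Among the edgeR fits that left out 1 SC mouse, Nrxn2 stayed called only in that without Control SC 2. The call of Grid1 was lost without CBP-ifKO SC 1 or CBP-ifKO SC 2. DESeq2 called 4 in SC (Nrxn2, Grid1, Grik4 and Gria3), and it called 7.42% of all genes in SC and 7.36% in EE. The SC and EE medians of the list were -0.09 and -0.16. In EE edgeR called 0 of 15, with 7 at an unadjusted p below 0.05 (19.6% of all genes) and a smallest adjusted p of 0.0570, whereas DESeq2 called 5 (Nrxn2, Grid1, Gria1, Gria3 and Dcc). Without Control EE 1, edgeR called 1 (Gria3). Adgrb3, the receptor for which C1ql1 is best known, had log2 fold changes of 0.04 (-0.07 to 0.15) and -0.08 (-0.21 to 0.06).

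Nptx2 was the 1 member called for housing, in a test over both genotypes, and its level was higher in EE. Its mean went from 16.9 ± 2.49 to 27.4 ± 2.07 CPM in controls and from 8.38 ± 0.479 to 13.4 ± 2.33 in CBP-ifKOs (SD, n = 3), and in each genotype every EE mouse was above every SC mouse. The log2 fold change was 0.70 (95% interval 0.44 to 0.96) in controls and 0.68 (0.41 to 0.95) in CBP-ifKOs. With edgeR the adjusted p over all 18251 genes was 0.150 and 0.121, and with DESeq2 it was 1.70e-04 and 6.57e-04, so the calls within a genotype depend on the tool. They also depend on the settings, since edgeR called Nptx2 in both genotypes without a filter on low counts and in CBP-ifKOs with a replicate block (adjusted p = 0.0342). In the edgeR test of the environment and interaction terms together, Nptx2 was the 1 member called (adjusted p = 0.0197), among 0.0712% of all genes. At an unadjusted p below 0.05 there were 3 members, against 6.87% of all genes, and DESeq2 called 2 members (Nptx2 and Nptx1), against 0.521%. The edgeR call of Nptx2 was lost in 5 of the 12 fits that left out 1 mouse (CBP-ifKO SC 1, 2 or 3, Control EE 3 or CBP-ifKO EE 2), with adjusted p-values up to 0.108. Without Control EE 1 the change in controls was 0.76 and the adjusted p of the joint edgeR test was 0.0170.

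Across the set, edgeR called 0 of 9 members in the housing comparison of controls and 0 of 9 in that of CBP-ifKOs. All genes gave 0% and 0.0110% in the same tests. At an unadjusted p below 0.05 there were 2 and 4 members, against 4.21% and 8.59% of all genes. DESeq2 called 1 member in each, Nptx2, against 0.0822% and 0.296% of all genes. The 3 mice of each housing did not overlap in 2 members in controls (Nptx1 and Nptx2) and 3 in CBP-ifKOs (Nptx1, Nptx2 and C1ql3), where 9.11% and 15.9% of all genes did not. For Nptx1 the values were lower in EE. Its CPM values were 742 to 762 in Control SC and 640 to 707 in Control EE, and 671 to 763 in CBP-ifKO SC and 546 to 665 in CBP-ifKO EE. The log2 changes of Nptx1 were -0.16 (95% interval -0.30 to -0.02) and -0.26 (-0.40 to -0.11), with edgeR adjusted p-values of 0.999 and 0.354, and without Control EE 1 the change in controls was -0.13. The ratio of Nptx2 to Nptx1 ranged from 0.0811 to 0.0856 in Control EE and from 0.0413 to 0.0548 in Control SC, which do not overlap.

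In CBP-ifKOs the point estimates of C1ql2 and C1ql3 were lower in EE than in SC. C1ql2 had a mean of 21.9 ± 3.93 CPM in SC and 16.9 ± 1.90 in EE, a log2 change of -0.37 (95% interval -0.67 to -0.07). C1ql3 went from 68.5 ± 3.25 to 57.2 ± 4.68, a log2 change of -0.26 (-0.46 to -0.06). The corresponding changes in controls were -0.05 (-0.33 to 0.22) and 0.10 (-0.10 to 0.30), and without Control EE 1 they were 0.0016 and 0.19. None of the 4 passed the edgeR test over all genes in the main fit. Without a filter on low counts the changes in CBP-ifKOs did (edgeR adjusted p = 0.00175 for C1ql2 and 0.0396 for C1ql3). The log2 changes of the remaining members lay between -0.17 and 0.06 in controls and between -0.18 and 0.20 in CBP-ifKOs, and each interval included 0.

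**Figure D5:**
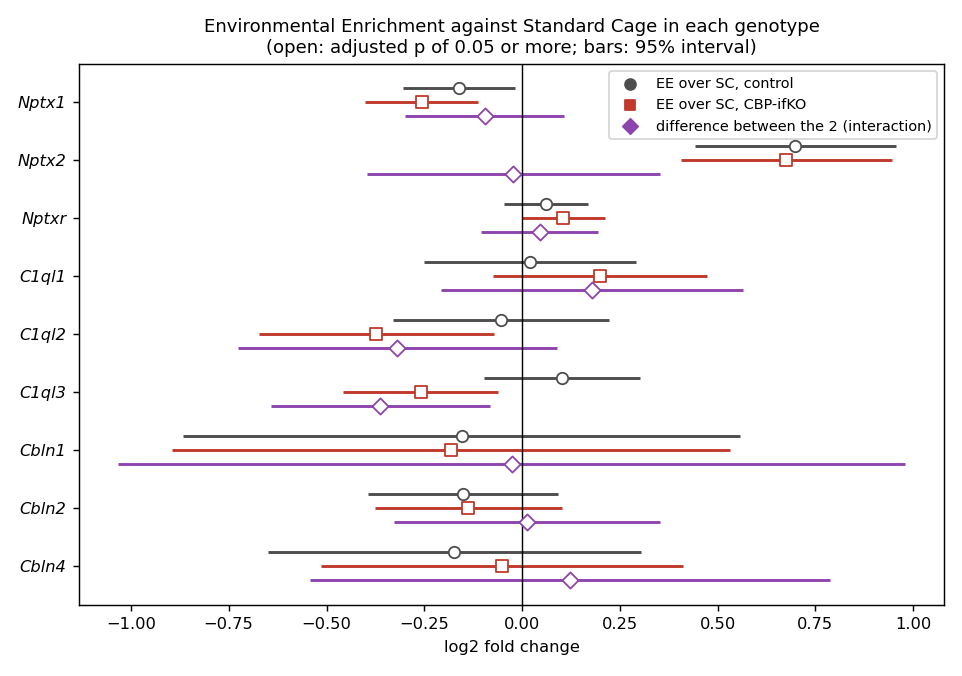
Log2 fold change of EE over SC in controls (circles) and CBP-ifKOs (squares) and the difference between them (diamonds), with 95% intervals from the fit of all 12 mice. All symbols are open because no change passed an adjusted p of 0.05 in edgeR, and the intervals of Nptx2 lie above 0 in both genotypes.

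The interaction of genotype and housing was called for 0 of 9 members by edgeR and 0 by DESeq2, and for 0% of all genes by edgeR. At an unadjusted p below 0.05 there was 1 member, C1ql3, against 3.15% of all genes. Its interaction was -0.36 on the log2 scale (95% interval -0.64 to -0.08, edgeR adjusted p = 0.9998), and -0.45 without Control EE 1 (edgeR adjusted p = 0.967). The receptors and partners gave 0 of 15 calls in both housing comparisons with edgeR and with DESeq2. At an unadjusted p below 0.05 there was 1 gene of 15 in each, near the 4.21% and 8.59% of all genes, with Adgrb3 at 0.13 (95% interval 0.02 to 0.24) in controls and Dcc at -0.19 (-0.36 to -0.02) in CBP-ifKOs.

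Nptx2 and C1ql2, the members called in both housings, were compared with every other gene across the 12 mice. Pearson's r of log2 CPM over 18251 genes was highest for Gm34583 (0.974), Car7 (0.968) and Rara (0.957) with Nptx2, and for Pdyn (0.993), Gm26644 (0.992) and Camkv (0.980) with C1ql2. Car7 encodes a carbonic anhydrase, Rara a retinoic acid receptor, and Pdyn the precursor of dynorphin peptides. The 12 mice share 4 group means, so r includes the differences between groups. After each group's mean was removed, r between Nptx2 and C1ql2 was 0.237, against 0.734 before.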

How the data were processed

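Hippocampal RNA of 12 mice was sequenced, with the 2 runs of a mouse merged into 1 replicate. Per the submitters' processing notes and the study's methods, the authors checked 50 bp single-end reads with FastQC 0.11.8, trimmed them with Trim Galore 0.6.4, aligned them with STAR 2.6.1 to GRCm38 (mm10), removed alignments of low mapping quality, and used Rsubread to assign reads to exons. They used DESeq2 1.30.1 for their own tests. The deposited table gives raw counts for each gene, which the authors did not normalize, beside a gene length in bases. Every deposited CBP-ifKO count was even, and the reason is not given in the sources used here.

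Counts were analyzed as deposited with edgeR 4.0.16 in R 4.3.3 (TMM normalization, edgeR's expression filter, quasi-likelihood test, Benjamini-Hochberg adjustment over all genes tested, threshold 0.05). All 9 genes passed the filter in every fit. Genotypes were compared in the 6 mice of each housing, and housing effects in all 12 mice with 1 coefficient per group. CPM and RPKM used TMM-scaled totals. A floor of 3 counts was 0.0801 to 0.112 CPM, which covers counting error only. The procedure was tested on simulated data. Alternatives were DESeq2 1.42.0, its size factors in edgeR, other filters, halved CBP-ifKO counts, a replicate block, fits on 6 or 12 mice, and leaving out each mouse. Libraries of a group differed by more than counting noise (chi-square per degree of freedom of 2.69 or more, with CBP-ifKO counts halved for this check), so none was counted as a duplicate.

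The genes and lists were chosen with earlier results of these data known. Values are given for all 9 genes, partners past a reported edgeR test on all mice of a comparison (otherwise the 3 with the smallest p in SC), Crebbp and Esr1, and the 3 genes most like each member called in both housings. Other genes given with a value or beside a count were chosen after their values were seen. Of the 15 partner genes, 1 is counted in the list's totals but not named here.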

Additional observations from a re-analysis of the deposited data

How the results depend on the processing

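In both housings the lower levels of C1ql2 and Nptx2 in CBP-ifKOs kept their direction and stayed past the threshold under all 13 alternatives. Of the 4 members called in SC, 2 to 4 were called when 1 mouse was left out. Without a filter on low counts 4 members (C1ql2, Nptx2, Nptxr and C1ql3) were called in EE (5.14% of 32641 genes) and 1 for housing in controls (0.413% of 35081). In that fit 4 members (Nptx1, Nptx2, C1ql2 and C1ql3) were called for housing in CBP-ifKOs (0.704%) and the same 4 in the joint test (1.17%). DESeq2 called 1 member for housing in controls, 1 in CBP-ifKOs and 2 in the joint test, and leaving out a mouse gave 0 to 1 in the joint test. Whether replicate numbers pair the mice is not given in the sources used here, and the reported fits did not pair them. Same-number correlations were -0.047 to 0.305 and different-number ones -0.251 to 0.144. Between genotypes in EE the same-number values (0.034 to 0.124) were all above the different-number ones (-0.125 to 0.006). With the replicate block 3 members were called in SC (5.94% of all genes), where C1ql1 was lost, 2 in EE (6.18%), 0 for housing in controls (0%) and 1 for housing in CBP-ifKOs (0.0931%; Nptx2, log2 change 0.67), and the interaction of Cbln1 was 0.043. Leaving out a mouse turned the direction of log2 changes that were never called. For genotype these ranged from -0.16 to 0.0101 (Cbln2) and -0.33 to 0.13 (Cbln4) in SC and from -0.16 to 0.0283 (Cbln2) and -0.24 to 0.24 (Cbln4) in EE. For housing in controls they ranged from -0.0432 to 0.0835 (C1ql1), -0.21 to 0.0307 (C1ql2), -0.0292 to 0.19 (C1ql3) and -0.52 to 0.10 (Cbln1), and in CBP-ifKOs from -0.54 to 0.11 (Cbln1) and -0.38 to 0.24 (Cbln4). The interactions ranged from -0.16 to 0.0874 (Nptx2), -0.38 to 0.34 (Cbln1), -0.083 to 0.10 (Cbln2) and -0.21 to 0.42 (Cbln4). Over all genes the calls ranged from 399 to 1908 in SC (968 in the reported test), 285 to 1677 in EE (805), 0 to 145 for housing in controls (0), 0 to 247 in CBP-ifKOs (2), 0 to 110 for the interaction (0) and 0 to 409 in the joint test (13). The causes were not tested. A fit of 6 mice could not be made for the interaction or the joint test. With 74 to 206 counts, Cbln1 had the least depth.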
